A study of Mus musculus with 3 samples.

Results

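The epidermal growth factor (EGF) family was examined as 10 genes of the 32285 in the count tables, namely the ligand genes Areg, Ereg, Hbegf, Tgfa, Epgn, Btc and Nrg1 and the receptor genes Egfr, Erbb2 and Erbb3. The genes were listed by name and no cut on a measured value decided which ones entered, but earlier results of these data were known when the list was made. Each was detected in every library, from 1997 UMIs (unique molecular identifiers, each a counted RNA molecule) for Ereg to 26500 UMIs for Hbegf over the kept cells of the 3 libraries.

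The cells came from dissociated back skin of mice at postnatal day 38 (P38), 6 months and 12 months, with 1 single-cell RNA-seq library per age. The labels give the genotype Wildtype and the treatment No for all 3 libraries, and the study's methods add that the mice carried a nuclear green fluorescent reporter (H2B-GFP) driven by the Krt14 promoter, which marks epithelial cells. The P38 and 12 months libraries were made from males and the 6 months library from a female, and the study describes the skin as being in catagen at P38, mostly in anagen at 6 months and in a mixture of telogen and anagen at 12 months. Age, hair cycle stage, sequencing depth and, for the 6 months library, sex therefore cannot be told apart, and no test between ages was possible. The study took the P38 data from an earlier publication and generated the 6 months and 12 months data anew. That difference cannot be told apart from age either. By the methods the cells were sorted so that epidermal and follicle cells were mixed at a chosen ratio, although the labels name no sort. The study describes the P38 sample as sorted for reporter-positive epithelial cells, so the sort cannot be told apart from age either, and the sources used here give no number of animals per library.

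Cells were placed in classes by marker genes that include none of the 10 members, and a class name carries "-like" because it rests on those markers alone. Of 8851 kept cells 5087 were placed in a class, and a class was used in a library when it held at least 20 cells. Of the placed cells that also lay in a named cluster, 79.2% had the same name there, and 363 of the 991 IFE basal-like cells lay in clusters without a name. The libraries stood far apart in depth, with medians of 16170 UMIs per kept cell at P38, 1019 at 6 months and 11438.5 at 12 months, and 1839 of the 3502 kept cells of the 6 months library had under 1000 genes. The 6 months and 12 months libraries shared 81 cell barcodes, and the P38 library shared 3 with the former and 1 with the latter. The P38 library held no fibroblast-like and no T cell-like cell. Mural or muscle-like cells are left out of the description, because only 16 of their 56 cells lay in a cluster of the same name. Their sums at 6 and 12 months stayed in the fit of class differences and in the correlations over sums. They therefore entered the estimate of spread behind the p-values. Levels are given as CPM, the UMIs of a gene per 1000000 UMIs of the class in that library, with an exact 95% Poisson interval that covers counting error only.

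Ligands of the EGF family are made as membrane-anchored precursors and are released by proteases of the ADAM family. Amphiregulin, epiregulin, heparin-binding EGF-like growth factor, transforming growth factor alpha, epigen and betacellulin bind the receptor tyrosine kinase EGFR, whereas the neuregulins bind ERBB3 and ERBB4. ERBB2 has no known ligand of its own and pairs with the other receptors. In skin the family is known for its part in keratinocyte growth, wound closure and the patterning of the hair coat, and mouse coats turn wavy when Tgfa or Egfr is disrupted.

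The genes of 4 of the 7 ligands lie side by side. Epgn, Ereg, Areg and Btc were the only 4 protein-coding genes within a 375.5 kb stretch of chromosome 5 (chr5:91027464-91402994, GRCm38), with gaps of 39.41 kb between Epgn and Ereg, 45.95 kb between Ereg and Areg and 208.8 kb between Areg and Btc. Epgn, Ereg and Areg are on the forward strand and Btc is on the reverse strand. Tgfa lies on chromosome 6 (chr6:86195223-86275719, forward), Hbegf on chromosome 18 and Nrg1 on chromosome 8 (chr8:31814551-32884029, reverse). Among the receptor genes, Egfr (chr11:16752203-16918158, forward) and Erbb2 (chr11:98412470-98437716, forward) share a chromosome and Erbb3 (chr10:128567523-128589652, reverse) is elsewhere. On the opposite strand other annotated genes overlap Ereg, Tgfa, Nrg1, Egfr and Erbb2, the last of them by Mien1 among others.

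The bases just before the annotated starts of Epgn, Areg and Btc are shown because these neighbours had unlike patterns over the cell classes, as described below. They come from RefSeq (GRCm38.p6), which held an entry for 6 of the 10 members, and run 5′ to 3′ on the strand of the gene up to the most upstream annotated start. Capitals mark a TATA box (TATAAA) or a cyclic AMP response element (CRE, TGACGTCA). The AP-1 motif TGANTCA was searched as well, and each motif was searched on both strands.

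Epgn, chr5:91027267-91027463, forward: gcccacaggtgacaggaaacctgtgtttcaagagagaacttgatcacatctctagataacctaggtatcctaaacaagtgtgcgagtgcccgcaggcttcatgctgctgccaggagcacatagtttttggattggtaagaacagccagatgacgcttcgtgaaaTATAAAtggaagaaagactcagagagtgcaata

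Areg, chr5:91139349-91139598, forward: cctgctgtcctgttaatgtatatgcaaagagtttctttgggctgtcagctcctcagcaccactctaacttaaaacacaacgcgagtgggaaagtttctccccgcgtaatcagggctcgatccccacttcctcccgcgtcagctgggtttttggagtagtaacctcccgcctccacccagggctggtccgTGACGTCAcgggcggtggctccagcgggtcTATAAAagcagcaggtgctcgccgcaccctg

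Btc, chr5:91402995-91403244, reverse: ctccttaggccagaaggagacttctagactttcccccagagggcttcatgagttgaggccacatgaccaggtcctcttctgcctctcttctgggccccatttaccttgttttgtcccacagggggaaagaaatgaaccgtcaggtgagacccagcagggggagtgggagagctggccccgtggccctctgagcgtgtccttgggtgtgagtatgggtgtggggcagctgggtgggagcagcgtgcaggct

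The Areg stretch of 250 bases held both the CRE and the TATA box, and the Epgn stretch of 197 bases held the TATA box. None of the 3 motifs was in the 250 bases shown for Btc. Of 27025 promoters, 1.62% held the CRE, 13% the TATA box and 6.87% the AP-1 motif within 250 bases, and 1.55%, 10.5% and 5.44% held them within 197 bases. These matches describe the letters of the windows and no binding was measured.

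**Figure D1:**
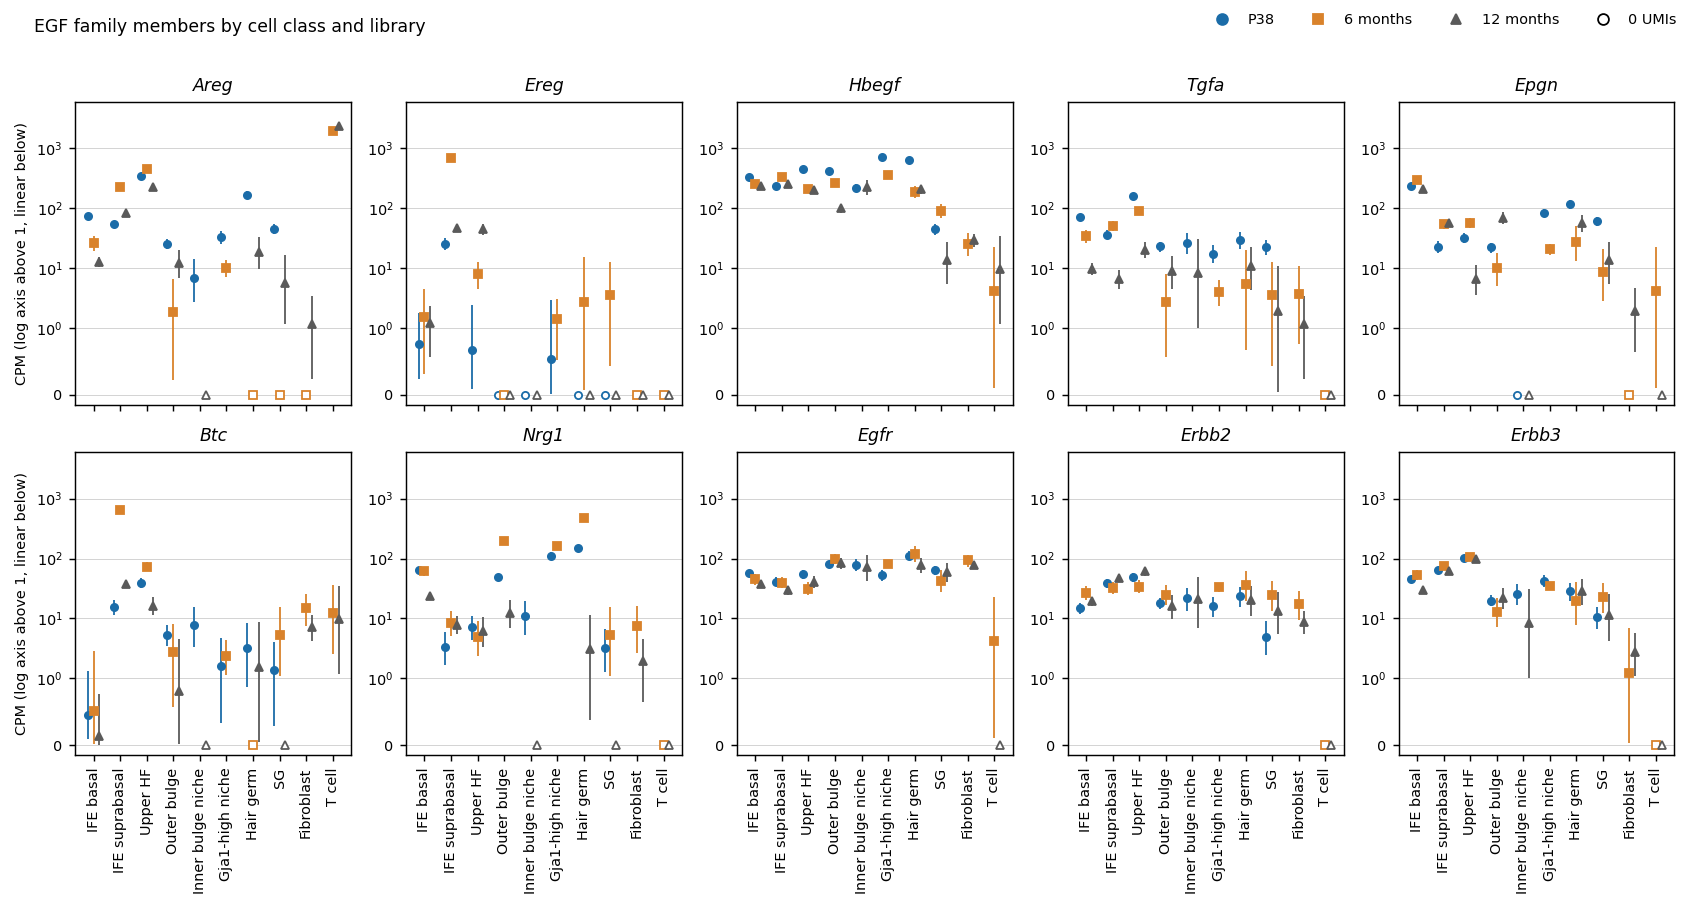
Each panel shows 1 member, with the cell classes along the horizontal axis and the level in CPM on the vertical axis (logarithmic above 1, linear below). Points are single libraries (P38, 6 months, 12 months), bars are exact 95% Poisson intervals, and open points mark 0 UMIs. Areg was highest in T cell-like cells (1973 and 2390 CPM), Ereg reached 682 CPM in suprabasal-like cells at 6 months, and Egfr stayed between 29.6 and 120 CPM in all keratinocyte classes shown.

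Differences between classes were tested with the library as the replicate. UMIs were summed per class and library, and edgeR's quasi-likelihood test with library as a block was run on 13842 genes, with p-values adjusted by Benjamini and Hochberg over all of them. All 10 members passed the filter on low counts. A difference at an adjusted p below 0.05 is called higher or lower. The block takes up differences between libraries that all classes share, and the spread that is left is estimated over all classes. The 3 libraries differ in age and sex, so the spread of a class difference between them includes those differences. Comparisons with interfollicular epidermis (IFE) basal-like cells all use the same basal-like sums, and those with outer bulge-like cells use the same outer bulge-like sums, so they are not independent of each other.

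In the fit with library as a block the upper hair follicle had the most members called among keratinocytes, whereas DESeq2 called 5 each in upper HF-like, suprabasal-like and SG-like cells. Against basal-like cells, 8 of the 10 members were called in upper hair follicle (HF)-like cells, 6 higher and 2 lower. Of all genes 15.9% were called there, 8.82% higher and 7.07% lower. In IFE suprabasal-like cells 4 members were higher and 1 lower, beside 14.1% of all genes called (7.4% higher, 6.68% lower). In outer bulge-like cells, the hair follicle stem cells, 1 was higher and 3 were lower, beside 11.4% of all genes (6.94% higher, 4.44% lower). Sebaceous gland (SG)-like cells had 5 lower and none higher, beside 19% of all genes (8.68% higher, 10.3% lower). Fibroblast-like cells had 2 higher and 6 lower, beside 34.1% of all genes (20.4% higher, 13.7% lower). The median log2 ratio of the 10 members was 1.4 in upper HF-like and 0.529 in suprabasal-like cells, where the medians of all genes were -0.0154 and -0.0156. It was -0.858 in outer bulge-like, -1.44 in SG-like and -3.42 in fibroblast-like cells, beside 0.00137, -0.0772 and 0 for all genes.

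**Figure D2:**
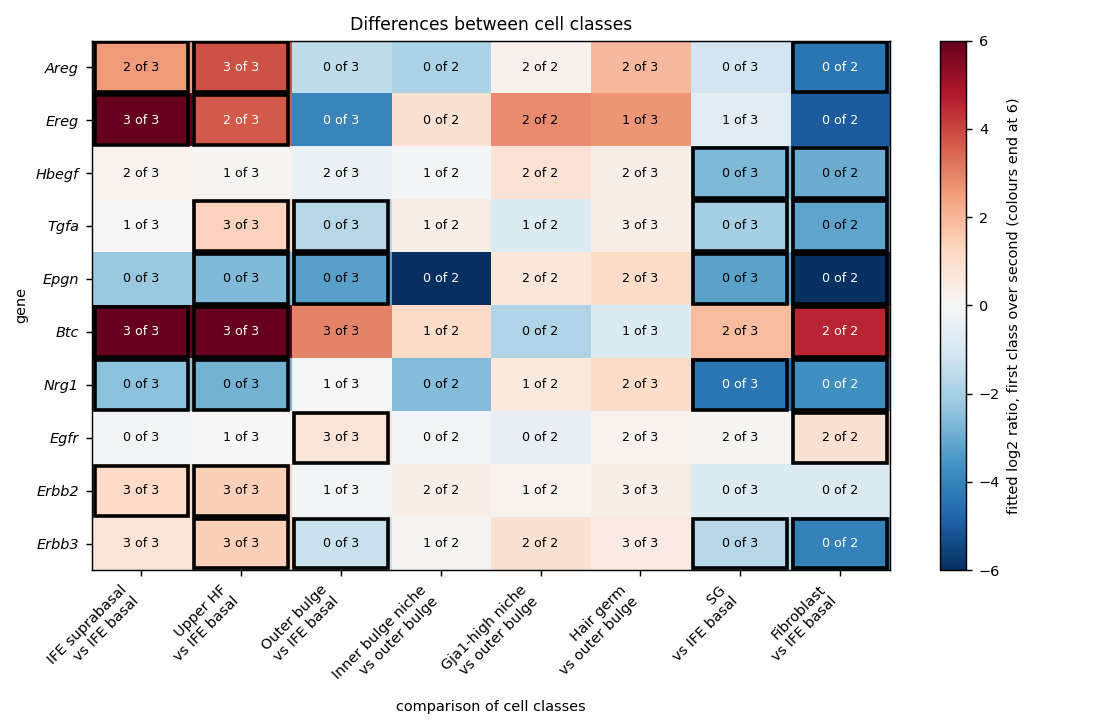
Fitted log2 ratios of the 10 members (rows) in 8 comparisons of cell classes (columns). Red is higher and blue is lower in the class named first, colours end at 6 on the log2 scale, black frames mark an adjusted p below 0.05 by edgeR's quasi-likelihood test, and the text in each cell gives the number of libraries in which the class named first was higher. In upper HF-like cells 8 members are framed, and the 3 comparisons with outer bulge-like cells have no frame.

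Areg, which encodes amphiregulin, marked the upper follicle among the keratinocytes. Its level in upper HF-like cells was 349 CPM at P38, 450 CPM at 6 months and 227 CPM at 12 months. In basal-like cells it was 75.3, 26.3 and 12.9 CPM, so the class ranges did not overlap and upper HF-like cells were higher in 3 of 3 libraries. The fitted log2 ratio was 3.8 ± 0.782 (SE; adjusted p = 0.00129, edgeR), and the adjusted p was 0.077 without the 12 months library. The UMIs were spread over 83 of 158, 72 of 198 and 49 of 180 cells in P38, 6 months and 12 months. After each cell was thinned to 2000 UMIs, 30.9%, 33.3% and 17.3% of the upper HF-like cells held an Areg UMI, and 6.69%, 1.61% and 2.24% of the basal-like cells.

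Suprabasal-like cells held 54.3 CPM of Areg at P38, 231 CPM at 6 months and 83.4 CPM at 12 months. They lay above the basal-like cells at 6 and 12 months and below them at P38. The fitted ratio of 2.57 ± 0.761 was called higher (adjusted p = 0.0233, edgeR), but the adjusted p was 0.19 without the 6 months library and 0.28 without the 12 months library. In outer bulge-like cells the level was 25.6 CPM at P38, 1.85 CPM (2 UMIs) at 6 months and 12.2 CPM at 12 months. Single cells held much of it, since 1 cell held 82 of the 125 UMIs at P38 and 1 cell held all 15 UMIs at 12 months. The fitted ratio to basal-like cells was -1.52 (adjusted p = 0.27) with these cells and -3.16 (adjusted p = 0.0168) when the highest cell of each sum was left out. In hair germ-like cells at P38, 165 of the 211 Areg UMIs lay in 1 cell, and the level of 170 CPM was 37.7 CPM without it.

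Areg was also the member found in T cell-like cells, a class gated on Cd3 and other T cell genes. It reached 1973 CPM at 6 months (interval 1800 to 2158) and 2390 CPM at 12 months (2183 to 2611), the highest level of this gene in any class of either library. At 6 months 22 of 51 cells held it, and at 12 months 30 of 40. Areg in the same libraries was 14.6 and 15.1 CPM in Langerhans or macrophage-like cells, with intervals far from those of the T cell-like cells. The median depths were 4423 and 4441 UMIs in T cell-like cells and 8880 and 9384 UMIs in Langerhans or macrophage-like cells. The other 9 members held 0 to 3 UMIs in each T cell-like sum.

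Ereg and Btc, which encode epiregulin and betacellulin, were higher in suprabasal-like than in basal-like cells, where few UMIs of either were counted. Ereg stood at 25.5 CPM in suprabasal-like cells at P38, 682 CPM at 6 months and 46.6 CPM at 12 months. Basal-like cells held 0.758, 1.55 and 1.23 CPM, which were 5, 3 and 9 UMIs. Suprabasal-like cells were higher in 3 of 3 libraries, with log2 ratios, in order of age, of 5.07 (interval 3.79 to 6.73), 8.79 (7.24 to 11.06) and 5.24 (4.29 to 6.39). The edgeR fit gave an adjusted p of 0.000109.

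Btc was at 15.5, 636.5 and 38.3 CPM in suprabasal-like cells in the same order. Only 3 UMIs at P38 and 1 UMI each at 6 and 12 months were counted in basal-like cells. The log2 ratios were 5.09 (interval 3.46 to 7.41), 10.27 (7.79 to 15.57) and 8.13 (5.63 to 13.44), with an adjusted p of 1.65e-06 by edgeR. The fitted ratios of 7.06 ± 0.998 for Ereg and 8.34 ± 0.947 for Btc rest on so few basal-like UMIs that they depend on the prior count of the fit. Both genes stayed higher in suprabasal-like cells under each of the 13 alternatives tried.

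Few cells carried these sums. At P38, 1 suprabasal-like cell held 77 of the 84 Ereg UMIs and 1 cell held 49 of the 51 Btc UMIs, and the levels without the highest cell were 2.15 and 0.614 CPM. At 12 months the highest cell held 102 of 220 Ereg UMIs and 142 of 181 Btc UMIs, and the levels without it were 25.2 and 8.32 CPM. At 6 months 22 cells shared 1444 Ereg UMIs and 25 cells shared 1347 Btc UMIs. With the highest cell of each sum left out, both genes were still called higher in suprabasal-like cells.

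Most UMIs of Ereg and Btc in suprabasal-like cells lay in cells with Flg, which encodes filaggrin, a protein of the granular layer just below the cornified surface. Flg is one of the markers of the class, and the split of the suprabasal-like cells by a Flg UMI was chosen after the values were seen, so it is a description. Of 696 suprabasal-like cells 130 held a Flg UMI, 41 held Ereg and 42 held Btc, and 16 held both ligands. Of the 41 cells with Ereg, 29 held Flg, and of the 42 with Btc, 31 did. By UMIs the overlap was closer, with 98.2% of the 1748 Ereg UMIs and 99.2% of the 1579 Btc UMIs in cells with Flg.

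Ereg was at 590 CPM in the 4 cells with Flg at P38, at 1565 CPM in 109 such cells at 6 months and at 1072 CPM in 17 at 12 months. The cells without Flg held 2.21, 1.67 and 5.07 CPM. Btc was at 376, 1459 and 936 CPM with Flg and at 0.632, 1.67 and 1.98 CPM without it. At P38 these levels rest on single cells, since 1 of the 4 cells with Flg held Ereg and 1 held Btc. Among the other members Egfr, Erbb2, Erbb3 and Nrg1 were lower with Flg in each library and Tgfa was higher. Areg, Hbegf and Epgn differed in direction between libraries. Egfr was at 15.3, 30.4 and 5.44 CPM against 42, 46.9 and 30.6 CPM, but the intervals overlapped in each library. Erbb2 was at 23, 19.5 and 21.8 CPM against 39.2, 42.7 and 48.7 CPM, with intervals apart at 6 months. Tgfa was at 53.7, 95.5 and 59.9 CPM against 36.0, 15.9 and 4.41 CPM, with intervals apart at 6 and 12 months. Of the 253 suprabasal-like cells of the 6 months library many were shallow, with a class median of 582 UMIs against 22270 at P38 and 16500 at 12 months, and the part of depth in the 6 months levels was not tested.

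**Figure D3:**
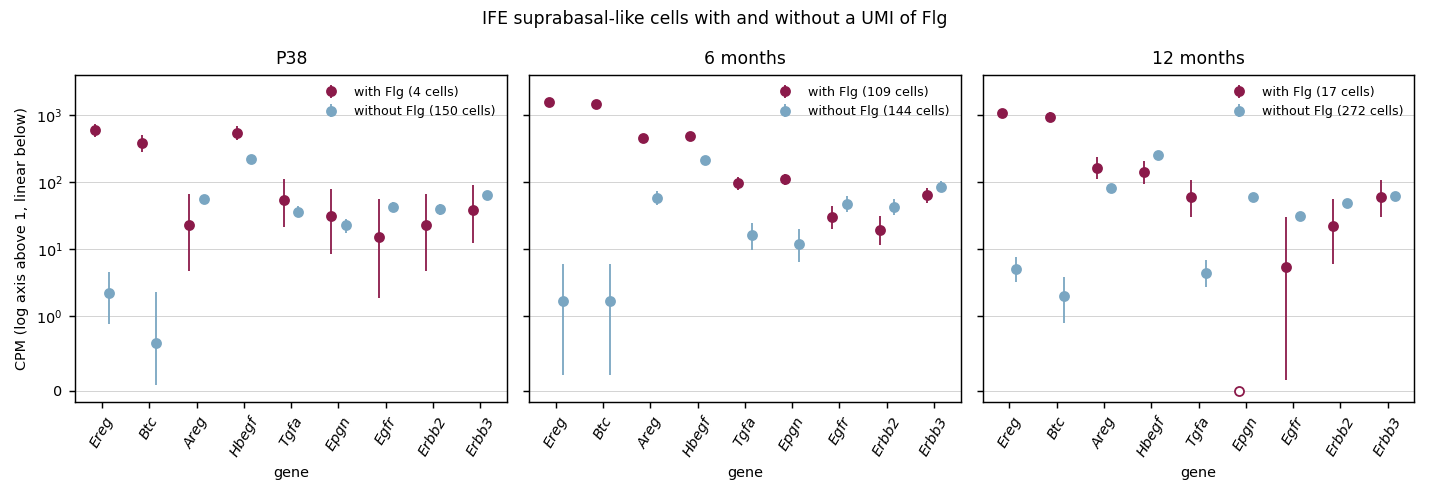
Levels in CPM (vertical axis, logarithmic above 1 and linear below) of 9 members in IFE suprabasal-like cells with (dark red) and without (blue) a UMI of Flg, 1 panel per library. Bars are exact 95% Poisson intervals and an open point marks 0 UMIs. Ereg and Btc lie at 376 to 1565 CPM in cells with Flg and at 0.632 to 5.07 CPM in cells without it, and no other member is split so far apart in all 3 libraries.

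The upper follicle held both genes at some ages. Btc was higher in upper HF-like than in suprabasal-like cells at P38 and lower at both later ages, at 12 months only with the highest suprabasal-like cell included, while Ereg at 12 months had overlapping intervals in these classes. In upper HF-like cells Btc was at 39.7 CPM at P38, 73 CPM at 6 months and 16.2 CPM at 12 months (14.4 CPM without the highest cell), in 45, 42 and 24 cells, of which 1, 3 and 1 held Flg. The fitted ratio to basal-like cells was 6.57 ± 0.938 (adjusted p = 3.02e-05, edgeR) and held under all 13 alternatives. Ereg in upper HF-like cells was at 0.678 CPM (2 UMIs) at P38, 8 CPM at 6 months and 44.8 CPM at 12 months, and was called higher as well (3.70 ± 1.03, adjusted p = 0.0201). That call was lost without the 12 months library (adjusted p = 0.4) and without the highest cell of each sum (0.08). At 12 months 1 cell held 45 of the 94 Ereg UMIs, and all 13 upper HF-like cells with Ereg also held Areg. Outer bulge-like cells held no Ereg UMI in any library, which allows up to 0.616, 2.78 and 2.43 CPM.

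Tgfa, which encodes transforming growth factor alpha, was highest in the upper follicle too. Upper HF-like cells held 160 CPM at P38, 89.5 CPM at 6 months and 20.5 CPM at 12 months, each above the basal-like cells of the same library at 72.8, 34.0 and 9.87 CPM. Both classes differed more between libraries than from each other. The fitted log2 ratio was 1.39 ± 0.474 (adjusted p = 0.0477, edgeR), close to the threshold, and 6 of 13 alternatives lost the call with adjusted p from 0.06 to 0.39, among them those without the P38 library (0.26) and without the 12 months library (0.12). Outer bulge-like cells held 23.2, 2.78 (3 UMIs) and 8.92 CPM and were called lower than basal-like cells (-1.69 ± 0.551, adjusted p = 0.0485), a call that 8 of 13 alternatives lost, including each fit without 1 library (0.36, 0.06 and 0.059 without P38, 6 months and 12 months).

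Hbegf, which encodes heparin-binding EGF-like growth factor, was broad. In basal-like cells it was at 337, 251 and 236 CPM in P38, 6 months and 12 months. Suprabasal-like cells held 236, 331 and 251 CPM, and upper HF-like cells held 458, 214 and 206 CPM, and neither class was called. In outer bulge-like cells the level was 421 CPM at P38, 263 CPM at 6 months and 100.5 CPM at 12 months, which overlapped the basal-like range. The highest values were at P38 in Gja1-high niche-like cells (707 CPM) and hair germ-like cells (649 CPM), while SG-like cells held 44.6, 92.1 and 13.5 CPM. At P38 the summed level of 9 genes of the dissociation response ran from 4212 CPM in SG-like to 33190 CPM in hair germ-like cells, the low and the high class of Hbegf among the 6 keratinocyte classes measured at all ages. At 6 and 12 months that sum was highest in outer bulge-like (20410 CPM) and hair germ-like cells (20310 CPM), while Hbegf was highest in suprabasal-like cells among these classes. Over 33 sums of class and library, which share libraries, Pearson's r between Hbegf and the list was 0.27, and the part of the list in the Hbegf levels was not tested.

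Epgn, which encodes epigen, was highest in basal-like cells among the 6 keratinocyte classes measured at all ages. Basal-like cells held 241 CPM at P38, 297.5 CPM at 6 months and 208 CPM at 12 months, spread over 166, 61 and 261 cells. Suprabasal-like cells held 22.8, 54.3 and 56.5 CPM and upper HF-like cells 32.2, 57.5 and 6.68 CPM, so the basal-like values lay above both in every library. Upper HF-like cells were called lower (-2.66 ± 0.835, adjusted p = 0.0306, edgeR), and suprabasal-like cells were not (-2.28 ± 0.811, adjusted p = 0.0645). Outer bulge-like cells held 22.4, 10.2 and 69.7 CPM and were called lower (-3.24 ± 0.872, adjusted p = 0.0156). Without the P38 library these calls were lost, at adjusted p = 0.14 in upper HF-like and 0.11 in outer bulge-like cells, and the former was lost without the 12 months library as well (0.071). At 12 months 55 of the 86 outer bulge-like UMIs were in 1 cell, and the level was 25.6 CPM without it. No Epgn UMI was counted in inner bulge niche-like cells, where the limits were 2.95 CPM at P38 and 12.7 CPM at 12 months.

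Nrg1, which encodes neuregulin 1, followed the basal layer and the lower follicle. Its level was 63.8, 61.4 and 24.1 CPM in basal-like cells and 3.34, 8.51 and 7.83 CPM in suprabasal-like cells, which were called lower (-2.47 ± 0.798, adjusted p = 0.0399, edgeR). Upper HF-like cells held 7.12, 5 and 6.2 CPM and were called lower as well (-2.83 ± 0.85, adjusted p = 0.024). Both calls were lost without the P38 library (adjusted p = 0.43 and 0.24) and, more narrowly, without the 6 months library (0.062 and 0.06). In the lower follicle the libraries differed widely, with 48.8, 199 and 12.2 CPM in outer bulge-like cells and 148, 472 and 3.15 CPM (2 UMIs) in hair germ-like cells. Of the 169 UMIs in the 23 hair germ-like cells at 6 months, 82 were in 1 cell, and the level was 259 CPM without it. In outer bulge-like cells of that library 1 cell held 64 of the 215 UMIs, and the level was 143 CPM without it.

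Egfr had a narrow range over the keratinocytes. Over the 6 keratinocyte classes measured in all libraries (IFE basal, IFE suprabasal, upper HF, outer bulge, hair germ and SG), the highest level of Egfr was 2.72 times the lowest at P38, 3.81 times at 6 months and 2.79 times at 12 months. The same range was 14.6, 3.59 and 18.5 times for Hbegf and 10.8, 33.6 and 31.2 times for Epgn. For Erbb2 it was 9.7, 1.46 and 4.58 times, and for Erbb3 9.89, 8.1 and 8.35 times.

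Among the keratinocytes Egfr, the receptor of most of these ligands, leaned toward the bulge and the hair germ, and not toward the stem cells alone. Its level was 56.8, 44.8 and 37.4 CPM in basal-like cells and 82.3, 97.3 and 82.7 CPM in outer bulge-like cells. The class ranges did not overlap, and the fitted ratio was 0.753 ± 0.241 (adjusted p = 0.0433, edgeR). The direction was the same in 3 of 3 libraries, but 9 of 13 alternatives moved the adjusted p above 0.05, to between 0.054 and 0.2, with 0.16, 0.083 and 0.2 when the P38, 6 months or 12 months library was left out. Hair germ-like cells held 111, 120 and 77.2 CPM. Inner bulge niche-like cells held 78.7 CPM at P38 and 71.9 CPM at 12 months, and Gja1-high niche-like cells 52.7 CPM at P38 and 81.2 CPM at 6 months. After thinning to 2000 UMIs, 14.4%, 16.8% and 13.9% of outer bulge-like cells and 8.82%, 7.26% and 6.17% of basal-like cells held an Egfr UMI, and 2% and 0% of T cell-like cells did.

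Erbb2 and Erbb3 leaned the other way, toward the upper follicle and the suprabasal layers. Erbb3 was at 103, 105 and 96.8 CPM in upper HF-like cells, a narrow range over the 3 libraries, and at 45.3, 54.1 and 30.2 CPM in basal-like cells. The fitted ratio was 1.41 ± 0.287 (adjusted p = 0.00124, edgeR) and the call held under all 13 alternatives. Suprabasal-like cells held 63.4, 75.6 and 62.0 CPM, above the basal-like cells in 3 of 3 libraries without passing the threshold (0.833 ± 0.285, adjusted p = 0.0537). Outer bulge-like cells held 19.9, 13 and 21.9 CPM and were called lower (-1.33 ± 0.31, adjusted p = 0.0054), a call lost without the P38 library (0.084) or the 6 months library (0.057). T cell-like cells held no Erbb3 UMI.

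Erbb2, the co-receptor, was at 48.5, 34.0 and 62.0 CPM in upper HF-like cells and 38.5, 32.6 and 47.6 CPM in suprabasal-like cells. Basal-like cells held 14.8, 26.8 and 19.3 CPM, below both classes in every library. Upper HF-like cells were called higher by 1.45 ± 0.317 (adjusted p = 0.00237) and suprabasal-like cells by 1.19 ± 0.314 (adjusted p = 0.0111). The gap was narrowest at 6 months, and both calls were lost without the P38 library (0.087 and 0.15) or the 12 months library (0.074 and 0.19).

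SG-like cells, which express lipid synthesis genes, were low in most ligand genes. Hbegf (-2.69 ± 0.5, adjusted p = 0.000376), Epgn (-3.22 ± 0.889, adjusted p = 0.0121), Nrg1 (-4.38 ± 1.09, adjusted p = 0.00575) and Tgfa (-1.99 ± 0.607, adjusted p = 0.0233) were called lower than in basal-like cells by edgeR. Erbb3 was the receptor gene called lower, with 10.5, 23.0 and 11.6 CPM (-1.73 ± 0.353, adjusted p = 0.00107). Egfr was at 63.6, 42.5 and 59.9 CPM in SG-like cells and was not called (0.164 ± 0.253, adjusted p = 0.751). Without the P38 library the calls of Tgfa, Nrg1 and Erbb3 were lost, at adjusted p = 0.13, 0.13 and 0.093, and that of Tgfa also without the 12 months library (0.065). Of the 9 dissociation response genes 6 were also called lower in SG-like cells, beside 10.3% of all genes. Among them were Atf3 (-1.98), Fos (-1.97), Fosb (-1.82) and Junb (-1.50), and the part of these genes in the ligand levels was not tested. The median depth of SG-like cells was 610 UMIs at 6 months and 707 UMIs at 12 months.

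Fibroblast-like cells, available at 6 and 12 months, held Egfr without most of its ligands. Egfr was at 93.2 and 77.9 CPM and was called higher than in basal-like cells (0.936 ± 0.272, adjusted p = 0.00954, edgeR). Erbb3 was nearly absent, at 1.23 CPM (1 UMI) and 2.77 CPM (7 UMIs), and was called lower (adjusted p = 1.3e-06). Epgn had 0 UMIs at 6 months and 5 UMIs at 12 months (adjusted p = 0.000426), and Areg had 0 and 3 UMIs (adjusted p = 0.0242). Hbegf was at 25.8 and 29.3 CPM (-3.00 ± 0.583, adjusted p = 0.000285). Tgfa (3 UMIs in each library) and Nrg1 (6 and 5 UMIs) were called lower as well. The calls of Areg, Tgfa, Btc and Egfr were lost without the 12 months library, at adjusted p = 0.23, 0.076, 0.24 and 0.16, and that of Nrg1 without the P38 (0.064) or the 6 months library (0.068). Btc went the other way, with 14.7 CPM (12 UMIs in 10 cells) and 7.12 CPM (18 UMIs in 15 cells) and a call of higher (adjusted p = 0.00401). Among classes taken as background, T cell-like cells held 12.4 CPM (3 UMIs) and 9.75 CPM (2 UMIs) of Btc in the same libraries. These levels were close to those of the fibroblast-like cells. Langerhans or macrophage-like cells, taken as background too, held 0 Btc UMIs in both libraries. The part of background in the fibroblast level was not tested.

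Within the lower follicle none of the 10 members was called between the gated classes, but some were with named clusters as classes. Inner bulge niche-like cells (74 at P38 and 31 at 12 months) were compared with outer bulge-like cells, where 0.0722% of all genes were called, all higher (0% lower). By summed level the hair germ markers did not set the hair germ-like cells apart, with a median per cell, scaled to equal depth, of 62.6 there, 93.6 in outer bulge-like, 134 in inner bulge niche-like and 58.1 in basal-like cells, so the name rests on the standardized score of the gate alone. Hair germ-like cells were compared likewise, with 0.0289% of all genes called (0.0217% higher, 0.00722% lower). In both comparisons 1 member had an unadjusted p under 0.05 by edgeR, Epgn (0.0129) in the niche and Areg (0.0328) in the hair germ, and DESeq2 called none. Gja1-high niche-like cells, a class gated on Gja1, Gjb2, Gjb6, Krt75 and Krt6a, differed from outer bulge-like cells in 6.35% of all genes (2.96% higher, 3.39% lower). Again none of the members was called by edgeR or DESeq2, and Erbb3 had the only unadjusted p under 0.05 (0.0131), at 42.1 CPM at P38 and 35.1 CPM at 6 months against 19.9 and 13 CPM. Of the 576 outer bulge-like cells 112 lay in the cluster named for the hair germ. With named clusters edgeR called Nrg1 (3.23, adjusted p = 0.00554) and Epgn (3.62, adjusted p = 0.0122) higher in the hair germ. In the Gja1-high niche it then called Nrg1 (2.35, adjusted p = 0.021) and Erbb3 (1.1, adjusted p = 0.0346) higher.

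Genes that act around the receptors were read from 6 lists. The shares of all genes called in each comparison, given above, apply to these lists too. No listed gene was called in inner bulge niche-like or hair germ-like cells against outer bulge-like cells. Among ligand release genes, Rhbdf2, which encodes an inactive rhomboid that carries the protease ADAM17 to the cell surface, was at 73.2, 65.5 and 56.3 CPM in upper HF-like cells, 39.4, 45.8 and 41.9 CPM in suprabasal-like cells and 14.5, 16.0 and 8.64 CPM in basal-like cells. It was called higher in upper HF-like cells (2.50 ± 0.409, adjusted p = 0.00012, edgeR) and in suprabasal-like cells (1.92 ± 0.406, adjusted p = 0.00174), where its values did not overlap those of basal-like cells. Adam10 was higher in upper HF-like cells (1.18), and Timp3, an inhibitor of such proteases, was lower in suprabasal-like cells (-1.58). Of the 6 genes of this list, 2 were higher in upper HF-like cells, 1 higher and 1 lower in suprabasal-like cells, and 0 were called in outer bulge-like cells. Of all genes, 8.82% were higher in upper HF-like cells, and 7.4% were higher and 6.68% lower in suprabasal-like cells. In SG-like cells Rhbdf1 was lower (-1.49), and in fibroblast-like cells Adam9 (1.95) and Adam17 (1.18) were higher.

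Of 13 feedback inhibitors, 4 were lower in suprabasal-like cells and none higher (median log2 ratio -0.66, beside -0.0156 for all genes), with Spred2 (-2.01), Cblb (-1.26), Spred1 (-1.10) and Lrig1 (-1.08). Lrig1, a transmembrane protein that promotes the breakdown of EGF receptors, went opposite ways in the upper follicle and the suprabasal layers. It was at 98.3, 104 and 90.6 CPM in upper HF-like cells, 25.6, 35.1 and 22.1 CPM in basal-like cells and 13, 11.8 and 9.31 CPM in suprabasal-like cells. It was called higher in upper HF-like cells (2 ± 0.284, adjusted p = 2.38e-05), where Spred2 (-2.21) and Cblb (-0.88) were lower. In SG-like cells Dusp4, a phosphatase of ERK kinases, was higher with 66.4, 92.1 and 87.0 CPM against 1.97, 1.55 and 0.137 CPM in basal-like cells (adjusted p = 5.48e-05), Spry4 was higher (2.73), and Spry1 (-2.34) and Cblb (-1.01) were lower. In outer bulge-like cells Cblb was lower (-0.938). In Gja1-high niche-like cells Spry1 (-2.18) and Spred2 (-1.40) were lower than in outer bulge-like cells. In fibroblast-like cells 3 were higher and 2 lower, led by Spry4 (3.78), Spry1 (1.68), Dusp6 (-1.47) and Spred1 (1.37).

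Of the 8 ERK target genes, 3 were lower in suprabasal-like cells, namely Etv5 (-4.10, adjusted p = 0.000281, edgeR), Etv4 (-3.48) and Plaur (-4.01). In upper HF-like and outer bulge-like cells 0 were called. The median log2 ratio of the list was -0.994 in suprabasal-like, -1.03 in upper HF-like and -0.0231 in outer bulge-like cells. The medians of all genes there were -0.0156, -0.0154 and 0.00137. Etv5 had 40, 25 and 61 UMIs in basal-like cells and 3, 0 and 1 in suprabasal-like cells. In fibroblast-like cells Plaur was higher (2.85), Fosl1 was lower (-2.33), and Etv1 was counted at 32 and 38 UMIs while no basal-like sum held an Etv1 UMI. In SG-like cells Fosl1 was lower (-2.55). Of 12 adaptors and kinases Mapk3, which encodes the kinase ERK1, was higher in upper HF-like (1.66, adjusted p = 2.42e-05), suprabasal-like (1.06) and outer bulge-like cells (1.03), and Gab1 was higher in upper HF-like cells (1.26). Gab1 (1.60) was higher in Gja1-high niche-like than in outer bulge-like cells, and in fibroblast-like cells Hras was lower (-2.39) and Shc1 higher (0.991).

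Only 2 of 5 other ligand and receptor genes passed the filter on low counts, Nrg2 and Nrg4. Nrg4, which encodes neuregulin 4, stood out in SG-like cells, with 14.5 CPM at P38, 35.4 CPM at 6 months and 67.6 CPM at 12 months. Basal-like cells held 3, 0 and 5 UMIs of it, and no suprabasal-like, upper HF-like, outer bulge-like or fibroblast-like sum held more than 7. The call was higher at an adjusted p of 3.36e-05. Nrg2 was lower in suprabasal-like (-3.10) and in upper HF-like cells (-3.29) than in basal-like cells. Of the 9 dissociation response genes, none was called by edgeR in suprabasal-like, upper HF-like or outer bulge-like cells against basal-like cells or within the lower follicle, and Hspa1a was higher in fibroblast-like cells (1.78).

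The genes whose levels ran most closely with a member were read over the 33 sums of class and library, as Pearson's r of log2(CPM + 5) over 11068 genes. The sums share libraries, so r is a description and carries no p. Ereg ran with Flg2 (0.954), Hrnr (0.932) and Pnpla1 (0.921), and Btc with Wfdc5 (0.891), Flg2 (0.885) and Cldn23 (0.878). Ereg and Btc had an r of 0.803 with each other. Erbb3 ran with Pkp1 (0.92), Lad1 (0.919) and Macc1 (0.914), and Erbb2 with Nipal2 (0.852), Ppl (0.85) and Evpl (0.842). The closest genes were Dusp5 (0.789) for Areg, Hspb1 (0.893) for Hbegf, Nectin2 (0.835) for Tgfa, Scrg1 (0.843) for Nrg1 and Prkci (0.867) for Egfr.

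Between ages, levels were set side by side as 1 library per age. A member was counted as differing when its CPM differed at least 2-fold, its Poisson intervals were apart and both libraries together held at least 10 UMIs. The receptor genes rarely passed it. Over 9 classes Egfr and Erbb3 passed in none of the classes and pairs of ages tested, and Erbb2 passed in 2, both higher at 6 months than at P38, in Gja1-high niche-like cells (33.2 against 16.0 CPM) and SG-like cells (24.8 against 5 CPM). Of the 59 pairs of member and class tested between P38 and 12 months, 4 were higher and 20 lower at 12 months, while 7.77% of all pairs of gene and class were higher and 6.7% lower, or 14.5% in all. Between P38 and 6 months 10 were higher and 16 lower of 62, beside 8.22% and 3.75% (12% in all). Between 6 and 12 months 3 were higher and 14 lower of 54, beside 3.7% and 7.31% (11% in all).

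Every Tgfa difference that passed the rule was lower at the later age. In basal-like cells the P38 level of 72.8 CPM (interval 66.4 to 79.6) was followed by 34.0 CPM (26.3 to 43.3) and 9.87 CPM (7.72 to 12.4), a 7.37-fold difference between P38 and 12 months. In upper HF-like cells it was 7.78-fold lower at 12 months than at P38, and in suprabasal-like cells 5.6-fold lower. It was lower in 5 of 7 classes between P38 and 12 months, in 5 of 7 between P38 and 6 months and in 3 of 4 between 6 and 12 months, and higher in none. Areg in basal-like cells showed the same order, at 75.3, 26.3 and 12.9 CPM, 5.85-fold lower at 12 months than at P38. In upper HF-like cells, where Areg was highest among keratinocytes, it did not pass the rule in any pair of ages. Suprabasal-like cells had more Areg at 6 months (231 CPM) than at P38 (54.3 CPM) or 12 months (83.4 CPM). Those without a Flg UMI held 55.6, 57.8 and 80.2 CPM in order of age, and those with Flg held 23 (3 UMIs), 455 and 163 CPM. At 6 months 419 of the 488 Areg UMIs lay in the 109 cells with Flg. The part of the share of cells with Flg in the difference was not tested.

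Ereg and Btc were highest at 6 months in suprabasal-like cells. Ereg was 26.8-fold and Btc 41.1-fold higher there than at P38, and at 12 months both were lower again, by 14.7-fold and 16.6-fold. The P38 class of 154 cells had 4 with Flg, the 6 months class of 253 cells had 109, and the 12 months class of 289 cells had 17. Of all suprabasal-like cells 156 lay in the 2 clusters named for inner root sheath and hair shaft markers. The larger of these had 1644 of its 1661 cells from the 6 months library and a median depth of 545 UMIs. In upper HF-like cells Btc was lower at 12 months than at P38 (2.45-fold) and than at 6 months (4.5-fold), whereas Ereg was 5.6-fold higher at 12 than at 6 months.

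Nrg1 was highest at 6 months in the lower follicle. Outer bulge-like cells held, in order of age, 48.8 CPM (interval 42.8 to 55.4), 199 CPM (173.5 to 227.7) and 12.2 CPM (6.8 to 20.1), and hair germ-like cells had the same order. At 6 months 5 of the 99 outer bulge-like cells held 76.7% of the UMIs. Without the highest cell of each sum the outer bulge-like levels were 43.1, 143 and 5.78 CPM. In basal-like cells Nrg1 was alike at P38 and 6 months and 2.65-fold lower at 12 months than at P38. Hbegf was 4.19-fold lower in outer bulge-like cells and 3.12-fold lower in hair germ-like cells at 12 months than at P38. The summed dissociation response moved between the libraries too. In order of age it was 24860, 20410 and 14700 CPM in outer bulge-like and 33190, 20020 and 20310 CPM in hair germ-like cells. In basal-like cells it was 7573, 13720 and 19280 CPM and in upper HF-like cells 4752, 7425 and 18320 CPM, and its part in the differences between ages was not tested. Hbegf did not pass the rule in basal-like or suprabasal-like cells. Epgn did not pass the rule in basal-like cells, where it was highest, and differed in both directions elsewhere.

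**Figure D4:**
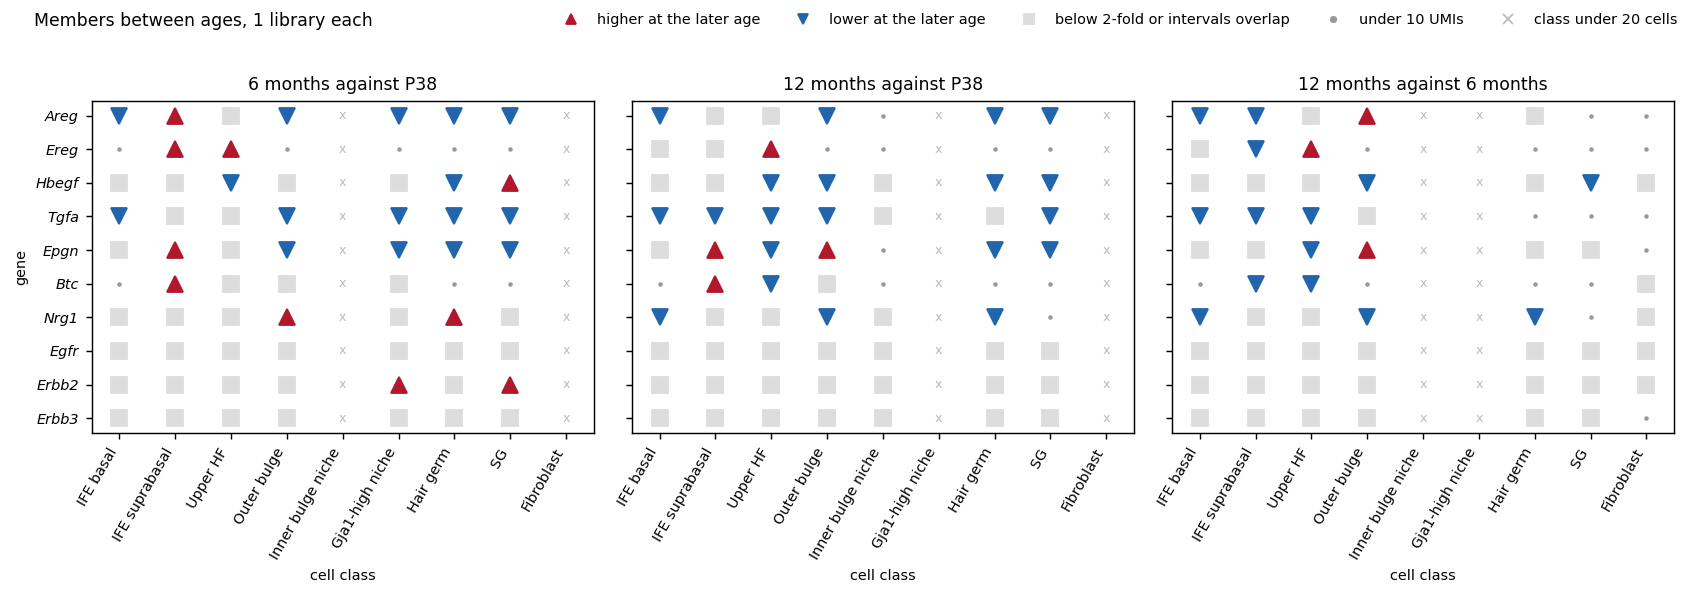
Members (rows) by cell class (columns) for the 3 pairs of ages, with 1 library per age and no test. Red and blue triangles mark a level at least 2-fold higher or lower at the later age with 95% Poisson intervals apart, grey squares mark smaller differences or overlapping intervals, dots mark under 10 UMIs in both libraries together and crosses a class under 20 cells. The rows of Egfr and Erbb3 hold no triangle, and the row of Tgfa holds downward triangles alone.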

How the data were processed

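Single-cell RNA-seq (10x 3′) of dissociated mouse back skin was analysed in 3 libraries, 1 per age. The authors deposited UMI counts per gene and cell, made with Cell Ranger on mm10, and the file headers give version 6.1.2 for P38 and 6.0.0 for both later ages. The totals of the kept cells were 34646663, 24698719 and 38910431 UMIs for P38, 6 months and 12 months.

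Cells with over 200 and under 5000 genes and under 15% mitochondrial UMIs were kept, the filter the study states, which left 2109 of 2397, 3502 of 4761 and 3240 of 5421 barcodes. For the 6 months library the study names fewer cells than this filter left. Cells were placed in a class by the mean score of its markers (at least 0.5, 0.25 above the next class, 3 markers detected), thresholds set after seeing the data. In all, 559 placed cells lay near a threshold. Scrublet (scanpy 1.11.5) marked 4, 0 and 3 cells and had not worked, so no doublet was removed. An alternative removed the 40, 133 and 141 cells with the highest scores.

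UMIs were summed per class and library, and edgeR 4.0.16 (R 4.3.3) fitted class with library as a block over 33 sums. Only the library is a replicate. The block takes up differences between libraries that all classes share. The p-values weigh a class difference against the spread that is left, estimated over all 33 sums and not over the compared classes alone. Poisson (CPM) and Clopper-Pearson (share of cells) intervals were at 95%, and a count of 0 allows up to 3 counts. Both cover counting error only. The fit was checked on simulated data. Alternatives were DESeq2 1.42.0 and its size factors, no filter on low counts, only the 2 classes compared in the fit, no block, clusters from Seurat 5.3.0 as classes, at least 1000 genes per cell, doublets removed, thinning to 1000 UMIs and leaving out each library. Added after seeing the data were leaving out shared barcodes, leaving out the highest cell of each member in each sum and the split by Flg.

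The members, markers and gene lists were chosen with earlier results of these data known. All 10 members are named in every comparison, and of each list at most the 4 called genes with the largest log2 ratio. The lists held 5 other ligands and receptors, 6 ligand release genes, 13 feedback inhibitors, 12 adaptors and kinases, 8 ERK target genes and 9 dissociation response genes. Nearest genes are the 3 with the highest r. Some results that these rules would name are not reported here.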

Additional observations from a re-analysis of the deposited data

Results flagged for a closer look

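In 9 pairs of member and comparison the libraries went opposite ways, and the difference between libraries was not tested. The values are log2 ratios of the CPM within a library, in the order P38, 6 months and 12 months.

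Against IFE basal-like cells, suprabasal-like cells had ratios of -0.472, 3.13 and 2.69 for Areg, -0.514, 0.398 and 0.0884 for Hbegf and -0.987, 0.571 and -0.589 for Tgfa. Upper HF-like cells had 0.441, -0.23 and -0.198 for Hbegf. Outer bulge-like cells had 0.321, 0.0679 and -1.23 for Hbegf and -0.386, 1.7 and -0.989 for Nrg1.

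Against outer bulge-like cells, inner bulge niche-like cells had a Hbegf ratio of -0.935 at P38 and 1.16 at 12 months. In the latter library 1 of the 31 niche cells held 28 of the 53 Hbegf UMIs, and the level was 110 CPM without it, against 100.5 CPM in outer bulge-like cells (90.6 CPM without their highest cell). Gja1-high niche-like cells had a Nrg1 ratio of 1.2 at P38 and -0.312 at 6 months. Hair germ-like cells had Hbegf ratios of 0.623, -0.47 and 1.05. Of these 9 pairs, Areg in suprabasal-like cells alone was called by edgeR.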

How the results depend on the processing

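Of the 30 calls, 9 held under every alternative run for them, namely Ereg and Btc in suprabasal-like, Btc and Erbb3 in upper HF-like, Hbegf and Epgn in SG-like and Hbegf, Epgn and Erbb3 in fibroblast-like cells. Without the library as a replicate block 3, 3, 1 and 3 members were called in suprabasal-like, upper HF-like, outer bulge-like and SG-like cells, where the blocked fit called 5, 8, 4 and 5. DESeq2 called 5 in upper HF-like cells, and cells with at least 1000 genes gave 2 in outer bulge-like cells. With only the compared classes in the fit, 2, 1 and 1 members were called in inner bulge niche-like, Gja1-high niche-like and hair germ-like cells, and with named clusters as classes 2 each in the latter pair. Leaving out 1 library gave 3 to 3 calls in suprabasal-like, 3 to 7 in upper HF-like, 0 to 2 in outer bulge-like, 2 to 6 in SG-like, 4 to 7 in fibroblast-like and 0 to 0 in the other 3 classes. The calls lost without P38 are 0 left in outer bulge-like, 2 in SG-like and 4 in upper HF-like cells, and those without 12 months leave 3 in upper HF-like and 4 in fibroblast-like cells. The causes were not tested. No paired analysis was possible between ages because each age has 1 library.

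Genes called among all tested moved by over 1.5 times as follows, in the order of the 8 comparisons where several are given (1949, 2200, 1576, 10, 879, 4, 2625 and 4725 in the fit reported). Without the block there were 1209, 1297, 892, 0, 452, 0 and 1728 for all but the fibroblast comparison. Without P38 they were 1030, 948, 651, 0, 156, 0 and 1237. Without 12 months they were 1250 (suprabasal), 6 (inner bulge niche), 2 (hair germ) and 2979 (fibroblast), and without 6 months 522 (Gja1-high niche). For the inner bulge niche and the hair germ they were 43 and 62 with no filter on low counts, 27 and 21 by DESeq2, 266 and 170 with only the compared classes in the fit and 214 and 335 with named clusters, which gave 1345 for the Gja1-high niche.

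Log2 ratios that changed sign all belonged to members not called. In suprabasal-like cells Tgfa (0.0304) became -0.196 with only the compared classes, -0.192 without the block, -0.0753 without shared barcodes, -0.00433 without the highest cells and -0.715 to 0.423 with 1 library left out, when Hbegf ran from -0.00201 to 0.414. In upper HF-like cells Egfr (0.0153) became -0.0056 with only the compared classes, -0.00355 with at least 1000 genes, -0.276 with named clusters, -0.0312 without shared barcodes, -0.00823 without the highest cells and -0.0953 to 0.154 (-0.044 without P38) with 1 library left out, when Hbegf ran from -0.106 to 0.293. In outer bulge-like cells Nrg1 (0.0198) became -1.15 with named clusters, -0.0194 without shared barcodes, -0.198 without the highest cells and -0.693 to 0.512 with 1 library left out, when Hbegf ran from -0.767 to 0.0643. In inner bulge niche-like cells Hbegf (-0.0513) became 0.0123 with DESeq2's size factors, 0.0603 by DESeq2, 0.0201 with only the compared classes, Btc became -1.95 with named clusters and -1.05 without the highest cells, and Erbb3 became -0.00262 without the highest cells. With 1 library left out these 3 ran from -0.795 to 0.674, from -2.72 to 1.33 and from -1.01 to 0.633 (-0.00835 without 6 months). In Gja1-high niche-like cells Epgn ran from -0.433 to 1.46 and Erbb2 from -0.00327 to 0.58 with 1 library left out. In hair germ-like cells Tgfa and Erbb2 became -1.22 and -0.0748 with named clusters and Ereg became -0.237 without the highest cells. With 1 library left out Ereg ran from -0.236 to 3.7 there and from -3.63 to 0.00192 in SG-like cells. The highest cell of a sum moved 87 levels beyond their intervals, named clusters 78, at least 1000 genes 9, doublet removal 8 and shared barcodes 1 (Btc in suprabasal-like cells at 6 months, 545 CPM).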

Other observations

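Some classes were measured in 1 library or lie outside the comparisons. Dermal papilla-like cells (77 cells at 12 months) held 19.7 CPM of Hbegf and 18 CPM of Egfr and no Erbb3 UMI. Endothelial-like cells (26 cells at 12 months) held 251 CPM of Hbegf, or 164 CPM without the highest cell, which held 18 of the 49 UMIs, while no Egfr or Erbb3 UMI was counted in them.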
